A study of Mus musculus with 18 samples.

Results

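The 10 genes described here encode the core of MHC class I antigen presentation in the mouse: the heavy chains H2-D1, H2-K1 and H2-T23, the light chain B2m, the peptide transporter subunits Tap1 and Tap2, the loading protein Tapbp, and the immunoproteasome subunits Psmb8, Psmb9 and Psmb10. They were taken by name from 55416 genes in the deposited tables, and all 10 were among the 16959 genes with enough reads to test. RNA came from ovaries of 18 wild-type female Balb/c mice, 1 sequencing library per mouse and 6 mice in each of 3 groups. Young controls (YC) were 8 weeks old and aged controls (OC) 40 weeks old, and both received distilled water. The treated group (OC+SM) was also 40 weeks old and received Samul-tang, a herbal decoction, at 2.5 g/kg by mouth. Dosing ran 5 times a week for 4 weeks in all groups. All 18 mice were then injected with 5 IU of PMSG, a gonadotropin that makes follicles grow, and 48 hours later with 5 IU of hCG, which triggers ovulation. Ovaries were collected 16 hours after hCG in all groups, a time the labels describe as after ovulation. The labels place aged mice with and without Samul-tang in shared, divided cages and do not say which mice shared one. The comparisons ask how these genes differed with age, with Samul-tang at 40 weeks, and between treated aged and young ovaries. OC enters the first and the second and YC the first and the third, so the 3 are not independent of each other.

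MHC class I molecules display peptides from inside the cell to CD8 T cells and NK cells. The proteasome cuts cellular proteins into peptides, and immune signals, above all interferons, replace its 3 constitutive catalytic subunits by Psmb8, Psmb9 and Psmb10. The TAP transporter, made of Tap1 and Tap2, moves the peptides into the endoplasmic reticulum, where tapasin (Tapbp) holds the empty heavy chain and B2m until a peptide fits. Most cell types carry class I molecules, leukocytes and endothelial cells more than most, and interferon gamma raises the whole set through factors that include Irf1 and the class I transactivator Nlrc5.

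In units of 1000000 counts, libraries held between 9.05 and 14.15 in YC, 11.61 and 13.43 in OC, and 14.2 and 20.35 in OC+SM. The treated libraries were thus all deeper than the untreated ones, and a batch that went with treatment cannot be told apart from it. The label ovary matched the data: 14 ovarian markers, for granulosa, theca, luteal cells and oocytes, summed to between 9513 and 16019 CPM (counts per 1000000) in every library, with at most 12109 in YC and at least 12984 in OC and 13989 in OC+SM, so that all aged libraries lay above all young ones, as H2-D1 and Psmb10 did; the part of this in the results was not tested. The 6 oviduct and fat markers summed to between 11 and 54 CPM. With age, 2 of the 13 ovarian markers tested were called higher and 5 lower, and Amh had at most 3 counts in any library. YC replicate 3 and OC+SM replicate 6 stood slightly apart. Their mean correlations with the other libraries of their own group were 0.964 and 0.963, against 0.969 to 0.977 for the rest.

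The promoters of the members are shown first because the motifs through which class I genes are known to be induced sit there. RefSeq (build GRCm38.p6) gave a promoter window for 9 of the 10 members, from 250 bases before to 50 bases after the annotated start. This reference genome comes from another strain than the Balb/c mice studied, with other H2 alleles. The promoters of these mice were not read and may differ from the letters shown. H2-K1 had 2 windows, and the upstream one is used. Both strands of each window were searched for the X2 core of the SXY module that recruits Nlrc5 (TGACG), the CCAAT box (CCAAT), an interferon regulatory factor element (GAANNGAAA), the STAT element GAS (TTCNNNGAA) and the NF-kappaB site, searched under the name kappaB. Below, windows are printed up to 30 bases after the start, on the strand of the gene, with matches in capitals. H2-D1 is at chr17:35262844-35263123 (+), H2-K1 at chr17:34000318-34000597 (-), B2m at chr2:122147437-122147716 (+), Tap1 at chr17:34187306-34187585 (+) and Tapbp at chr17:33919228-33919507 (+).
H2-D1: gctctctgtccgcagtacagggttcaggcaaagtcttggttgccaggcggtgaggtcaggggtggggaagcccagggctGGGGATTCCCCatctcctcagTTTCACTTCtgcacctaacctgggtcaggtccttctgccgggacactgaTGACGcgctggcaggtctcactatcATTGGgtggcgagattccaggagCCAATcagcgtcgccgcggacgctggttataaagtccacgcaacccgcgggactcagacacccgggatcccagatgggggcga
H2-K1: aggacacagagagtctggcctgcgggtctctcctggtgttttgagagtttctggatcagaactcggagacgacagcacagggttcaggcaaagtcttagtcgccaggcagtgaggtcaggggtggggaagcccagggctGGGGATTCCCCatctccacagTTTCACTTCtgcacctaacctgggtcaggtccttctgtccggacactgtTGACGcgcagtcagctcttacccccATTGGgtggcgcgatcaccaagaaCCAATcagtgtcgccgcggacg
B2m: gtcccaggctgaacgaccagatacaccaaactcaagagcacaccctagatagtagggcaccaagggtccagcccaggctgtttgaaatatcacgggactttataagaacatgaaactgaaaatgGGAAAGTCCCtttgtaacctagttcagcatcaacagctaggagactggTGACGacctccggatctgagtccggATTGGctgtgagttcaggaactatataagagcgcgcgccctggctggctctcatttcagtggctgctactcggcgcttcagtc
Tap1: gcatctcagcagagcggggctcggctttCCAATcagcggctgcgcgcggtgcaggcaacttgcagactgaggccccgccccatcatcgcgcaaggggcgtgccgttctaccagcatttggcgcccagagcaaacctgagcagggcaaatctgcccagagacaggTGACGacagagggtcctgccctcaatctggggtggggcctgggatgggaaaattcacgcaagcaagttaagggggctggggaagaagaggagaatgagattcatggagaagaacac
Tapbp: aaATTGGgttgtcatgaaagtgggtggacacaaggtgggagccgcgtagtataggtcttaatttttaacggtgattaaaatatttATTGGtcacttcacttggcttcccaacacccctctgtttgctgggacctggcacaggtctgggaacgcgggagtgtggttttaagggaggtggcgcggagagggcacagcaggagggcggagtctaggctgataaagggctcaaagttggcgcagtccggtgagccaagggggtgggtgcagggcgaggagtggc

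H2-D1 and H2-K1 carried the same order of matches: kappaB, the interferon element (read on the other strand as TTTCACTTC), the X2 core and a pair of CCAAT boxes. In each of these windows, 2 kappaB matches overlapped and are printed as 1 run of capitals. The 2 printed stretches were 90.3% identical over 207 aligned bases. B2m had kappaB, X2 and CCAAT matches, and a second X2 match lay 44 bases after its start, beyond the printed stretch. It had no interferon element of these letters. A similar but longer stretch, gaaactgaaa, stands just before its kappaB match and was not among the letters searched. Tap1 and Psmb9 are read from opposite strands, their starts lie 226 bases apart, and 275 bases of their windows are shared, so the X2 and CCAAT matches shown for Tap1 are also those of Psmb9. Tapbp had 2 CCAAT boxes, H2-T23 had 1, Psmb8 had 1 GAS match, and Psmb10 had no match to any of the 5 motifs.

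Single motifs were common. Among all 32851 RefSeq mouse windows, 20.8% held the X2 core, 37.4% a CCAAT box, 7.52% the interferon element, 8.3% a GAS match and 8.46% a kappaB match, and 7.73% held both an X2 core and a CCAAT box. X2, CCAAT, interferon element and kappaB occurred together in 0.0487% of windows, 16 windows of 15 genes. Of those genes, 6 were class I heavy chain genes: H2-D1, H2-K1, H2-Q4, H2-Q7, H2-M2 and H2-M3. A match describes letters in a window and not a bound factor, and similar stretches such as that of B2m were not counted.

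**Figure D1:**
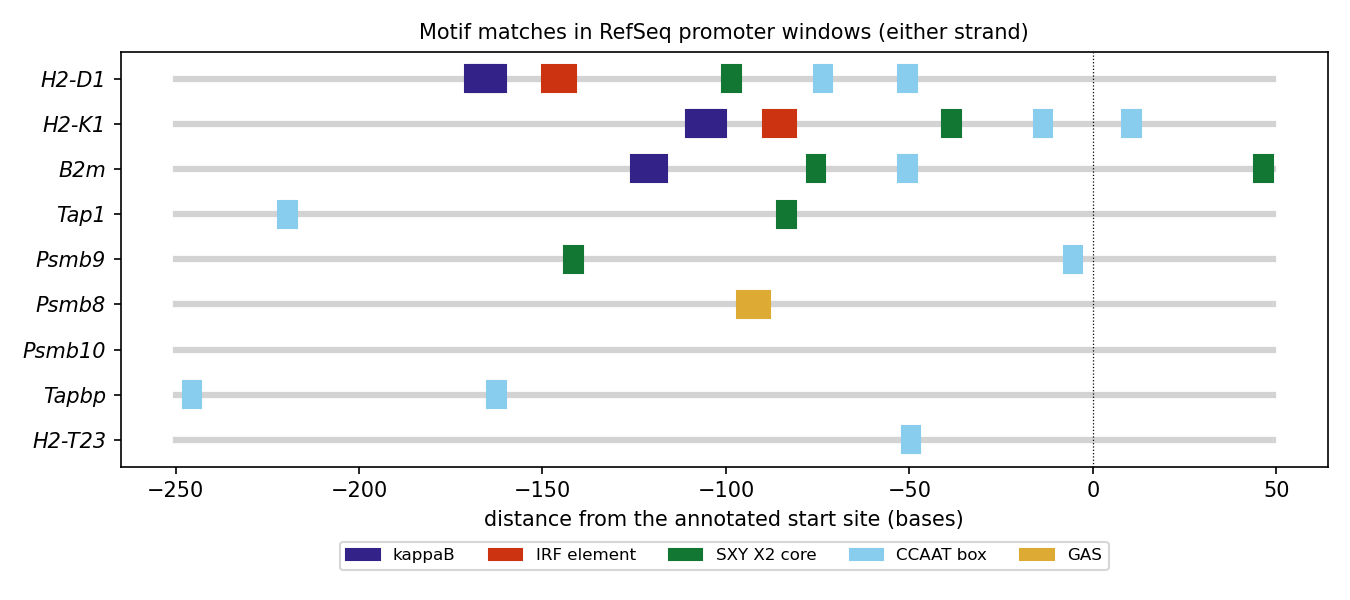
Motif matches in the RefSeq promoter windows of 9 members. The x axis gives the distance in bases from the annotated start, grey lines span the window searched, and coloured boxes mark matches on either strand. H2-D1 and H2-K1 show the same series of kappaB, interferon element, X2 and CCAAT boxes, and Psmb10 shows none.

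With age, 7 of the 10 genes rose and none fell: H2-D1, H2-K1, B2m, Tap1, Psmb8, Psmb9 and Psmb10. Among all genes tested, 11.3% were called, 5.25% as higher in OC and 6.01% as lower. All 10 members had a positive log2 fold change, with a median of 0.54, against a median of 0.006 over all genes tested. Calls are edgeR quasi-likelihood tests with Benjamini-Hochberg adjustment over all genes, at an adjusted p under 0.05. Levels are CPM, scaled by the TMM method, and fold changes are log2 values with their standard error (SE).

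H2-D1, a classical class I molecule that shows peptides to CD8 T cells, had the largest fold change of the 10 members. In YC it ranged from 152.3 to 200 CPM with a median of 171.5, in OC from 261.8 to 431.5 CPM with a median of 300.8, and in OC+SM from 253.3 to 344.3 CPM with a median of 306.4. Every aged ovary, treated or not, lay above every young one. The means were 316.5 ± 59.9 CPM in OC and 170.8 ± 17.5 CPM in YC (SD, n = 6), a 1.85-fold difference (log2 0.89, SE 0.10, adjusted p = 6.3e-06).

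H2-K1, the other classical heavy chain of this set, ranged from 44.2 to 68.0 CPM in YC (median 62.7), from 87.9 to 119.4 CPM in OC (median 95) and from 65.1 to 93.2 CPM in OC+SM (median 74.8). OC lay wholly above YC, and OC+SM overlapped both. The rise with age was 1.62-fold (log2 0.69, SE 0.10, adjusted p = 7.27e-05). H2-T23 encodes Qa-1, a nonclassical molecule seen by receptors of NK cells. It was low and variable, from 4.04 to 14.1 CPM in YC, 7.99 to 18.3 CPM in OC and 7.94 to 18.8 CPM in OC+SM. The groups overlapped, and the log2 difference between OC and YC was 0.33 with a 95% interval from -0.28 to 0.94 (adjusted p = 0.539).

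Reads of heavy chain genes are hard to place, since the genes resemble each other and the reference genome comes from another strain with other H2 alleles. Expected counts of H2-D1, H2-K1, H2-T23 and Tapbp were not whole in any of the 18 libraries, which shows that reads were divided between genes. In an older annotation (GENCODE M21), 50.6% of the 50-base stretches in the last 300 bases of H2-T23 transcripts occurred in another gene, against 13.5% for H2-D1 and 9.54% for H2-K1. The genes sharing most with H2-T23 were Rab33b, Hook2 and Gm42508, which are not heavy chain genes. For H2-D1 they were H2-K1, AC132307.5 and Adsl, and for H2-K1 the heavy chain genes H2-D1, H2-T23 and H2-Q1. Summing the counts of all 29 heavy chain genes removes the division among them, but not a division with genes outside the family. That sum was 299.4 ± 27.6 CPM in YC, 511.4 ± 80.0 in OC and 475.7 ± 54.2 in OC+SM, and the difference between OC and YC was log2 0.77 with SE 0.09. The effect of the strain difference was not tested.

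B2m, the light chain shared by all class I molecules, ranged from 291.9 to 358.5 CPM in YC (median 324.0), from 343.1 to 704.3 CPM in OC (median 447.3) and from 345.6 to 553.9 CPM in OC+SM (median 436.5). In OC, 5 of 6 libraries lay above all YC libraries, and replicate 6 of OC was the highest, above the next at 486.7 CPM. The rise was 1.46-fold (log2 0.54, SE 0.14, adjusted p = 0.0142), and without OC replicate 6 it was log2 0.39 (adjusted p = 0.0112). B2m reads are not shared with another gene in that annotation, and its count was whole in all but 1 library.

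**Figure D2:**
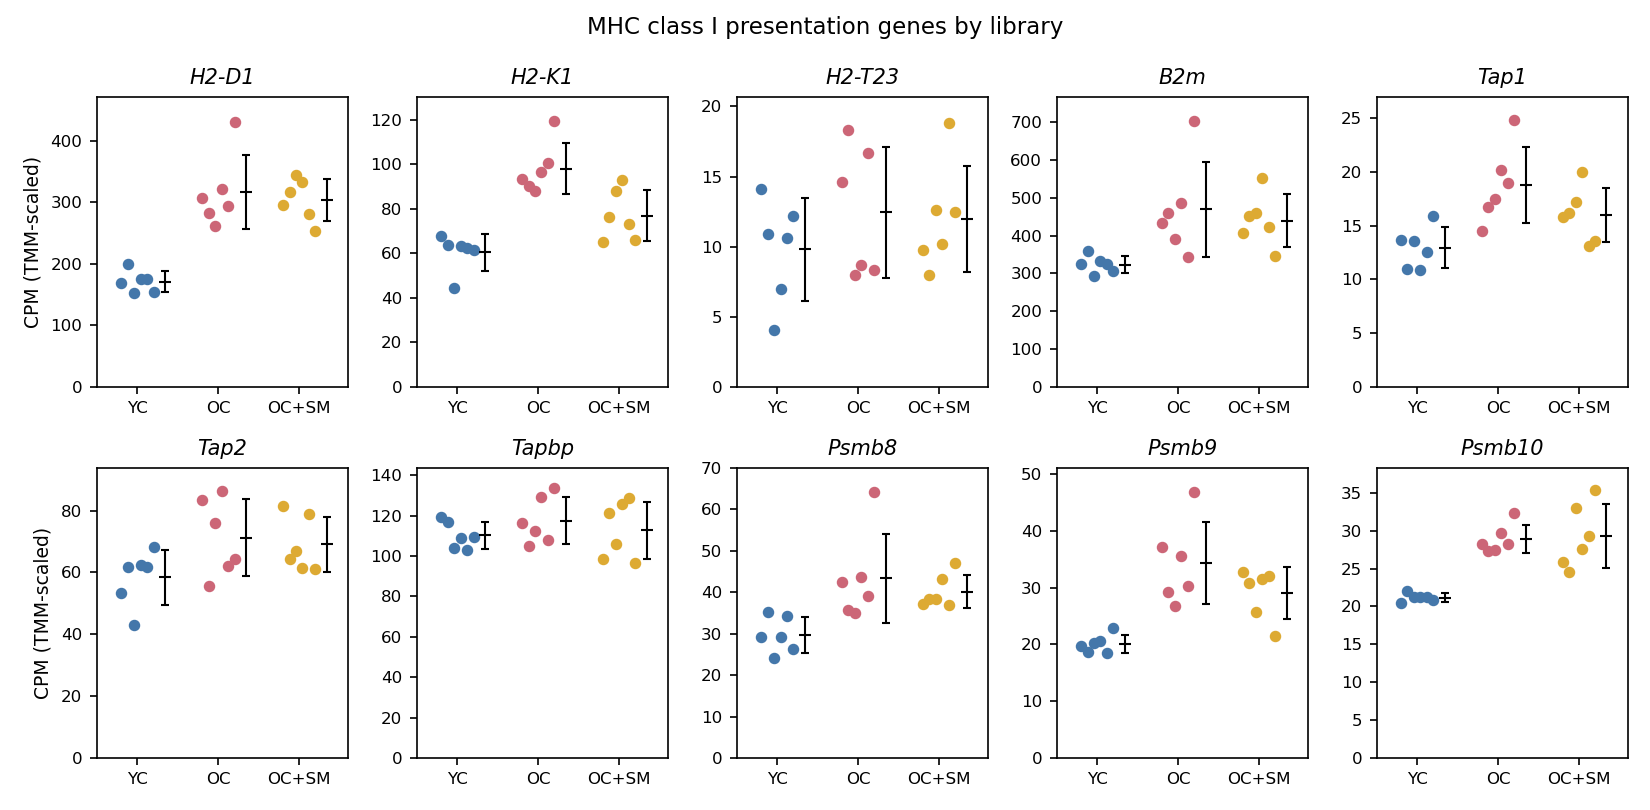
CPM of the 10 genes in each library, in the order YC, OC and OC+SM, with the mean and SD of each group (n = 6) beside the points; each panel has its own axis from 0. In H2-D1, H2-K1, Psmb9 and Psmb10 all OC points lie above all YC points, and in H2-T23 and Tapbp the groups overlap widely.

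Of the peptide loading genes, only Tap1 passed the test with age. Tap1, which forms the transporter together with Tap2, ranged from 10.9 to 15.9 CPM in YC (median 13.1), from 14.5 to 24.8 CPM in OC (median 18.3) and from 13.1 to 20 CPM in OC+SM (median 16.0). In OC, 5 of 6 libraries lay above all YC libraries. The mean was 18.8 ± 3.55 CPM in OC and 12.9 ± 1.88 CPM in YC, 1.46-fold (log2 0.54, SE 0.13, adjusted p = 0.00604).

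Tap2, the second transporter subunit, ranged from 43.0 to 68.2 CPM in YC, from 55.7 to 86.4 CPM in OC and from 61.1 to 81.5 CPM in OC+SM, with overlap among all groups. Its log2 difference of 0.29 had a 95% interval from 0.04 to 0.53 and did not pass after adjustment (adjusted p = 0.128). Tapbp ranged from 103.0 to 119.6 CPM in YC, 105.0 to 133.8 CPM in OC and 96.7 to 128.7 CPM in OC+SM. Its log2 difference was 0.09 (95% interval from -0.07 to 0.25, adjusted p = 0.533), so a rise as large as that of Tap1 lies outside the interval. Whether the changes of Tap1 and Tap2 differed from each other was not tested.

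All 3 immunoproteasome subunits rose with age. Psmb9 ranged from 18.4 to 22.9 CPM in YC (median 20), from 26.8 to 46.8 CPM in OC (median 33.0) and from 21.4 to 32.7 CPM in OC+SM (median 31.2). OC and YC did not overlap, and the rise was 1.71-fold (log2 0.77, SE 0.12, adjusted p = 0.000127). Psmb10 was the steadiest member in young ovaries, from 20.4 to 22.1 CPM (median 21.2), and ranged from 27.3 to 32.3 CPM in OC (median 28.3) and from 24.5 to 35.4 CPM in OC+SM (median 28.5). Both aged groups lay wholly above YC, and the rise from YC to OC was 1.36-fold (log2 0.45, SE 0.08, adjusted p = 0.000811).

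Psmb8 ranged from 24.1 to 35.2 CPM in YC (median 29.2), from 35.0 to 64.1 CPM in OC (median 40.8) and from 37.0 to 47.0 CPM in OC+SM (median 38.3). The lowest OC library lay just under the highest YC library, so the groups touched. The rise was 1.46-fold (log2 0.54, SE 0.13, adjusted p = 0.0061), and log2 0.40 without OC replicate 6 (adjusted p = 0.00956). Groups without overlap, with OC higher, were thus found for 4 members, H2-D1, H2-K1, Psmb9 and Psmb10, and for 3.22% of all genes tested.

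Each immunoproteasome subunit takes the place of a constitutive one: Psmb8 that of Psmb5, Psmb9 that of Psmb6 and Psmb10 that of Psmb7. Of the constitutive partners, only Psmb5 passed the test with age. Psmb5 rose from 189.4 ± 28.7 to 236.4 ± 12.1 CPM (log2 0.32, SE 0.08, adjusted p = 0.011). Psmb6 was 113.6 ± 6.10 CPM in YC and 125.8 ± 5.23 in OC (log2 0.15, adjusted p = 0.134), and Psmb7 117.3 ± 13.3 and 125.3 ± 11.4 CPM (log2 0.09, adjusted p = 0.504).

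The ratio of the 2 counts within a library does not depend on how libraries are scaled. The log2 ratio of Psmb9 to Psmb6 was -2.50 ± 0.16 in YC and -1.90 ± 0.28 in OC (SD, n = 6), a difference of 0.60 or 1.52-fold, without overlap (two-sided exact permutation test, p = 0.00216, the smallest that these group sizes allow; adjusted p = 0.0195 over 9 tests). For Psmb10 to Psmb7 the difference was 0.35 or 1.27-fold (exact permutation p = 0.00866, adjusted p = 0.039). That call was lost when any 1 of 10 libraries was left out, all but YC replicate 3 and OC replicate 2, with adjusted p from 0.0584 to 0.0779. For Psmb8 to Psmb5 it was 0.19, from -2.67 ± 0.17 to -2.48 ± 0.34 (exact permutation p = 0.24, adjusted p = 0.309), and 0.07 without OC replicate 6. Relative to their partners, Psmb9 thus rose and Psmb10 rose with that limit, while Psmb8 and Psmb5 had both risen and their ratio did not pass.

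**Figure D3:**
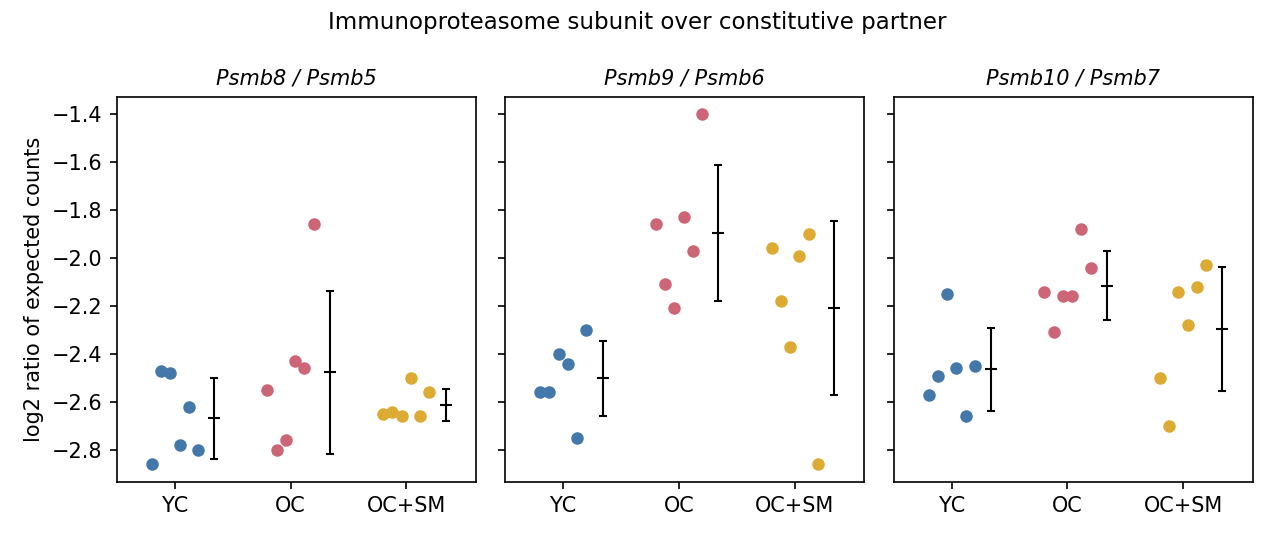
Log2 ratio of the expected counts of each immunoproteasome subunit to its constitutive partner in each library, with group mean and SD (n = 6). For Psmb9 over Psmb6 the OC points lie above all YC points; the lowest point of the panel, in OC+SM, is replicate 6.

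The members did not all vary together among mice of 1 group. OC replicate 6 had the highest level of its group in 8 of the 10 genes, among them H2-D1 (431.5 CPM), B2m (704.3 CPM) and Psmb8 (64.1 CPM), and OC replicate 3 the lowest in 5. Without OC replicate 6 the same count, 7 members, was called with age, and H2-D1 had a log2 fold change of 0.78, H2-K1 of 0.63, Psmb9 of 0.67, Tap1 of 0.45 and Psmb10 of 0.41. YC replicate 3 had the lowest level of its group in 6 of the 10, with H2-K1 at 44.2 CPM. Without YC replicate 3 and OC+SM replicate 6, which stood apart, 7 members were again called, with H2-D1 at log2 0.86 and H2-K1 at 0.62.

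Across the 18 libraries, after the group means were removed, H2-D1 and B2m, whose proteins form 1 molecule, were most alike, with a Pearson r of 0.86. Among 16958 genes, B2m ranked first for H2-D1 and H2-D1 first for B2m. H2-D1 also went with H2-K1 (r = 0.74) and Psmb8 (r = 0.72). Without OC replicate 6 these values were 0.73, 0.68 and 0.45. Of the 45 pairs of members 33 had a positive r, and the median r was 0.27. Tap1 and Psmb9, which share a promoter region, had r = 0.46, while Tap1 and Tap2 had r = -0.22 and Psmb9 and Psmb10 r = -0.23. Without OC replicate 6 these values were 0.22, -0.16 and -0.58. These correlations describe 18 libraries that also share differences of depth and composition.

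By the same measure, the non-members most like the average of the 10 members were Mrpl48-ps (r = 0.79), Zfp865 (0.78), Irf7 (0.78), Stat2 (0.77) and A930033H14Rik (0.77), among 11365 genes with a mean of at least 5 CPM. With so many genes and 18 libraries, some r of this size can arise by chance. The values were not recomputed without OC replicate 6. Irf7 and Stat2 are transcription factors of the interferon response. Their log2 differences between OC and YC were 0.79 (SE 0.28, adjusted p = 0.0722) and 0.31 (SE 0.10, adjusted p = 0.0557), and neither passed.

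Samul-tang moved no member past the test. Over all genes, 1.04% were called between OC+SM and OC (176 of 16959), and 16.9% had an unadjusted p under 0.05, as did 1 of the 10 members. The median log2 fold change of the members was -0.08, 9 of 10 were negative, and for all genes the median was 0.006. For H2-D1 the log2 difference was -0.06 with a 95% interval from -0.27 to 0.15 (adjusted p = 0.828), which leaves out a loss as large as the gain with age. For B2m it was -0.10 (95% interval from -0.38 to 0.19), for Psmb8 -0.11 (-0.37 to 0.14) and for Psmb10 0.02 (-0.15 to 0.19). The signs of H2-D1, B2m and Psmb8 turned without OC replicate 6, at 0.05, 0.06 and 0.03.

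H2-K1 was the member with the unadjusted p under 0.05. All 6 OC+SM libraries lay below the OC mean of 98.0 ± 11.4 CPM, at a mean of 77.0 ± 11.5 CPM, and 4 of them lay above all YC libraries. The log2 difference was -0.35 (SE 0.10, 95% interval from -0.56 to -0.14, edgeR adjusted p = 0.0796), or 0.79-fold. It passed under DESeq2 (adjusted p = 0.0329), after thinning to equal depth (log2 -0.38, adjusted p = 0.0458), and without YC replicate 3 (adjusted p = 0.0308) or OC+SM replicate 4 (adjusted p = 0.0254), and its adjusted p ranged from 0.0254 to 0.177 over all alternatives. Psmb9 and Tap1 had log2 differences of -0.24 (95% interval from -0.49 to 0.00, adjusted p = 0.299) and -0.23 (-0.49 to 0.02, adjusted p = 0.352), and -0.13 and -0.14 without OC replicate 6. None of the 3 subunit ratios differed between OC+SM and OC by the exact permutation test (Psmb9 to Psmb6, difference -0.31, adjusted p = 0.287).

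**Figure D4:**
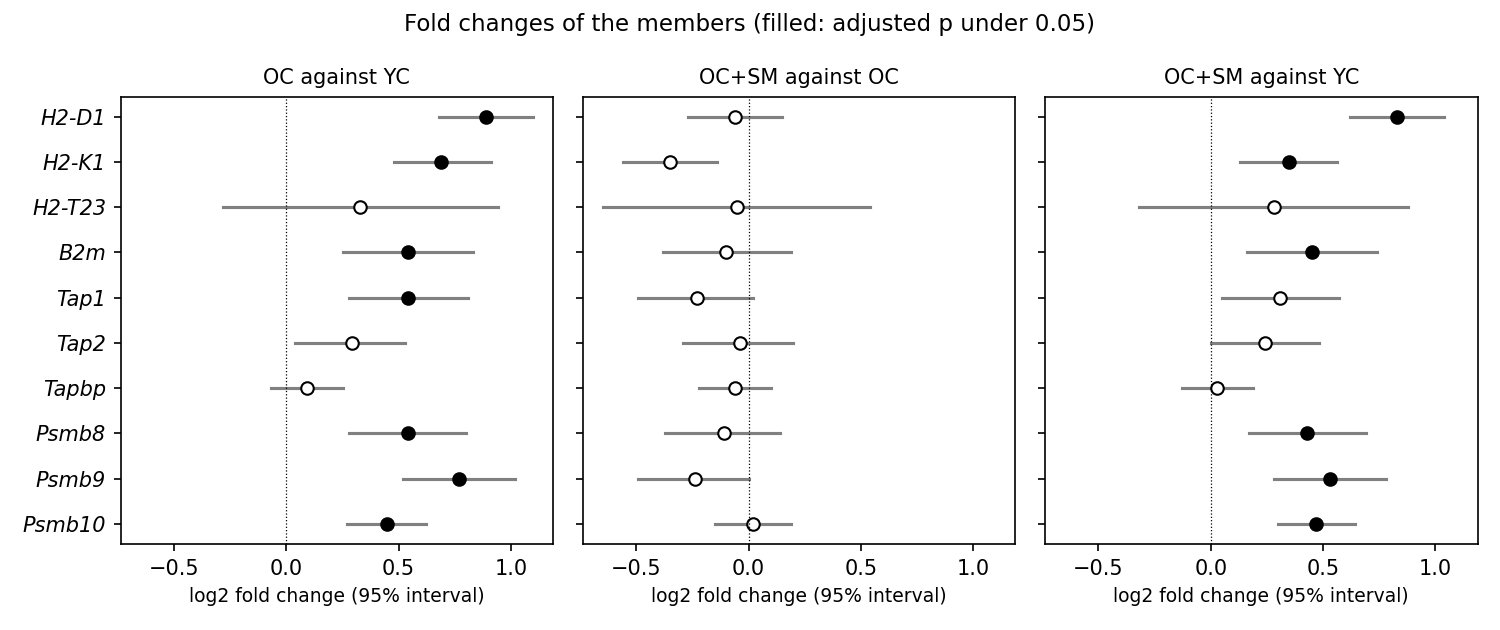
Log2 fold changes of the 10 genes in the 3 comparisons with 95% intervals; filled points have an adjusted p under 0.05. In OC against YC 7 points are filled, in OC+SM against OC none, and in OC+SM against YC 6.

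Treated aged ovaries were above young ones in 6 members, with none lower: H2-D1, H2-K1, B2m, Psmb8, Psmb9 and Psmb10. In this comparison 22.4% of all genes were called and 11.5% as higher. H2-D1 was 1.78-fold higher (log2 0.83, adjusted p = 9.33e-06), Psmb9 1.45-fold (log2 0.53, adjusted p = 0.0028), Psmb10 1.38-fold (log2 0.47, adjusted p = 0.000303) and H2-K1 1.27-fold (log2 0.35, adjusted p = 0.0172). H2-D1, Psmb8 and Psmb10 did not overlap between OC+SM and YC, as was so for 4.85% of all genes with OC+SM higher. None of the subunit ratios passed between OC+SM and YC by the exact permutation test. The log2 differences were 0.29 for Psmb9 to Psmb6 (adjusted p = 0.287), 0.17 for Psmb10 to Psmb7 (adjusted p = 0.309) and 0.06 for Psmb8 to Psmb5 (adjusted p = 0.463). Tap1 had a log2 difference of 0.31 (95% interval from 0.05 to 0.57, adjusted p = 0.0853) and was called without YC replicate 6 (adjusted p = 0.0483). Without YC replicate 3 and OC+SM replicate 6, 5 members were called and Psmb8 was not (log2 0.33, adjusted p = 0.0819). B2m was 1.36-fold higher (adjusted p = 0.0252), a call that was lost without YC replicate 3 or 6 or OC+SM replicate 3 or 4 (adjusted p up to 0.0625) and with no filter on low counts (adjusted p = 0.0536).

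H2-Q7 and H2-Q4 rose among the rest of the class I family. Of 19 other heavy chain and class I-like genes, 12 were tested, 2 rose with age and none fell, with a median log2 fold change of 0.25. H2-Q7, a nonclassical heavy chain, went from 7.28 ± 1.36 to 20.3 ± 5.08 CPM (log2 1.48, SE 0.22, adjusted p = 0.000163), and H2-Q4 from 2.27 ± 0.58 to 4.35 ± 0.75 CPM (log2 0.93, SE 0.19, adjusted p = 0.00164). H2-T10 and Cd1d1, which presents lipids, had log2 differences of 0.62 and 0.38 and did not pass (adjusted p = 0.0718 and 0.0883). Of the 6 heavy chain genes with all 4 motifs in 1 promoter window, 5 were tested and 4 were called higher: H2-D1, H2-K1, H2-Q4 and H2-Q7. H2-M3, the remaining one, was at log2 0.14 (adjusted p = 0.715). Of the 9 other genes with such a window, 6 were tested and none was called. This grouping was made after the values were seen, and the heavy chain genes resemble each other. A part of the motifs in the rise was not tested.

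In the general machinery of peptide loading, no gene passed the test with age, though small changes could be missed. None of 15 tested partners, chaperones and trimming enzymes such as Calr, Canx, Pdia3 and Erap1, was called, with log2 fold changes from -0.08 to 0.19 and a median of 0.03. Of these, Bcap31, an endoplasmic reticulum protein of class I export, was the 1 gene called with Samul-tang, from 91.3 ± 6.23 to 110.2 ± 11.3 CPM (log2 0.27, SE 0.07, adjusted p = 0.0483). That comparison called 32 to 639 genes over the alternatives, and Bcap31 was not followed under them.

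Of 15 other genes of the 20S core and its assembly, 3 rose with age and none fell (median log2 0.16): Psmb4 (0.32, adjusted p = 0.00289), Psmb3 (0.29, adjusted p = 0.0129) and Psmb1 (0.20, adjusted p = 0.0447). None of 21 genes of the 19S particle, which unfolds substrates, and its assembly was called (median 0.10). Of 4 genes for the proteasome activators PA28 and, for Psme4, PA200, none was called (median 0.14). Psme1 was at log2 0.26 (edgeR adjusted p = 0.0547) and Psme2 at 0.18 (adjusted p = 0.0717). Psme3 was at -0.13 and Psme4 at 0.10. With Samul-tang, Psma5, a structural subunit of the core, rose from 59.0 ± 5.53 to 72.5 ± 3.52 CPM (log2 0.30, SE 0.06, adjusted p = 0.0247). This call, too, was not followed under the alternatives. Between OC+SM and YC, which differ in age and treatment together, 11.5% of all genes were called higher. So were 11 of the 15 core genes, 7 of the 21 genes listed with the 19S particle and all 3 constitutive partners.

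Among 20 regulators of class I genes, Irf1, the interferon-induced factor that binds class I promoters, rose with age from 38.7 ± 2.46 to 52.0 ± 6.93 CPM (log2 0.43, SE 0.08, adjusted p = 0.000942) and was the only 1 called; the list's median was 0.15. Nlrc5, the transactivator, was near 1 to 2 CPM (1.23 ± 0.43 in YC, 1.94 ± 0.64 in OC; log2 0.66, SE 0.33, adjusted p = 0.225) and is named outside the rule for listed genes because of its role. With Samul-tang none of the 20 was called, and Irf1 stayed at 52.8 ± 4.92 CPM (log2 0.02).

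Interferon transcripts themselves were hardly seen. Ifng, which encodes interferon gamma, had at most 2 counts in a library, Tnf at most 6, and Ifnb1, Ifna4 and Ifne had 0 in all libraries; a gene that is absent cannot be told apart from one below this depth. Of 13 tested genes for interferon and TNF ligands, receptors and signalling, 3 rose with age: Ifnar2, a chain of the type I interferon receptor (log2 0.49, SE 0.07, adjusted p = 3.2e-05), and the TNF receptors Tnfrsf1b (0.58, adjusted p = 0.00453) and Tnfrsf1a (0.23, adjusted p = 0.0301). Both chains of the interferon gamma receptor, Ifngr1 and Ifngr2, were at log2 0.03 and 0.01.

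Interferon-induced genes rose in larger number. Of 24 tested, 13 were called higher with age and none lower, with a median log2 fold change of 0.72. Xaf1 went from 69.7 ± 10.9 to 122.1 ± 15.6 CPM (log2 0.81, adjusted p = 5.91e-05), Rsad2, an antiviral enzyme, from 3.82 ± 1.27 to 10.7 ± 2.32 CPM (log2 1.49, adjusted p = 3.45e-05), and the guanylate-binding protein Gbp4 from 7.30 ± 1.26 to 15 ± 3.96 CPM (log2 1.04, adjusted p = 0.000707). Summed over the list, levels were 339.9 to 438.9 CPM in YC, 521.3 to 696.4 in OC and 476.0 to 684.5 in OC+SM. Both aged groups lay wholly above YC in that sum, OC replicate 6 was highest of OC and YC replicate 3 lowest of YC, the same libraries that stood out in the members. With Samul-tang none of the 24 was called.

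**Figure D5:**
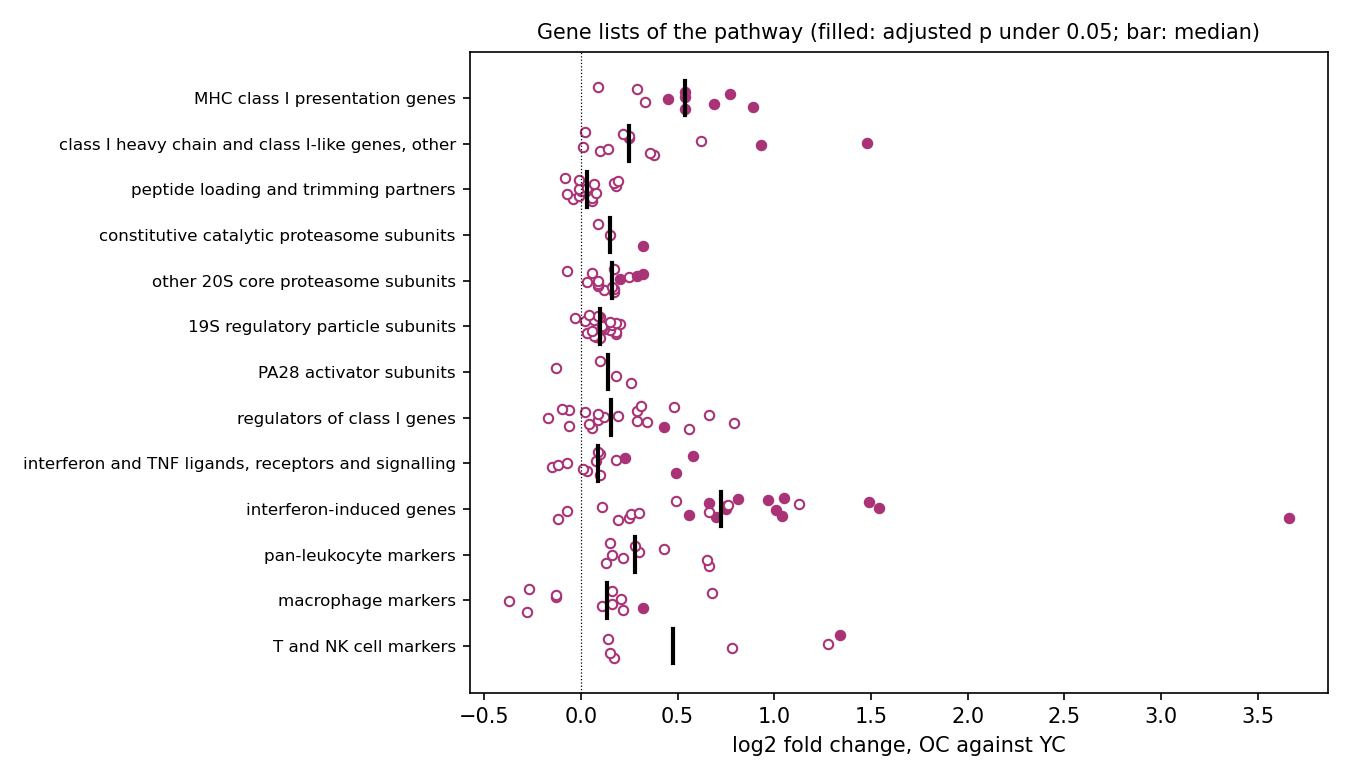
Log2 fold changes, OC against YC, of every tested gene in the members and 12 other lists; filled points have an adjusted p under 0.05 and the bar is the median of the list. Interferon-induced genes have 13 of 24 points filled (median 0.72) and the members 7 of 10 (median 0.54). They lie further right than peptide loading partners (0 of 15, median 0.03) and genes listed with the 19S particle (0 of 21, median 0.10). The PA28 row also holds Psme4, which encodes PA200.

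Leukocytes and endothelial cells carry class I molecules. In bulk ovary a change in the number of cells of a type and a change in RNA per cell cannot be told apart. None of 9 pan-leukocyte markers was called with age, though all 9 were positive (median log2 0.28), and none was at 0. Their sum was 78.1 to 132.8 CPM in YC (median 83.5), 95.2 to 128.5 in OC (median 107.0) and 91.2 to 120.8 in OC+SM (median 106.4). YC replicate 3 had the highest sum of all libraries, 132.8 CPM, and at the same time the lowest H2-D1, H2-K1, B2m and Psmb8 of its group; the other 5 YC libraries lay below all OC libraries. Without YC replicate 3, 7 members were again called with age.

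Of 13 T and NK cell markers, 6 were tested and Trbc2, a T cell receptor chain, rose (log2 1.34, SE 0.28, adjusted p = 0.00184); the sum of all 13 was 5.98 to 10.3 CPM in YC, 8.35 to 16.0 in OC and 12.2 to 14.4 in OC+SM. Of 5 tested B and plasma cell markers, Igkc and Jchain rose (log2 1.81 and 1.45, adjusted p = 0.0183 and 0.0129), while Ms4a1, Mzb1 and Ighm had values of -0.02, -0.25 and -0.23 and the median was -0.02. Of 12 macrophage markers C1qa rose (log2 0.32, adjusted p = 0.0308) and none fell; 7 had a positive value, Cd163 had the lowest at log2 -0.37 and the median was 0.13, with sums of 235.6 to 484.6 CPM in YC and 331.7 to 444.5 in OC. None of 5 tested dendritic cell markers was called. Of 10 endothelial markers Plvap, Emcn and Kdr rose (log2 1.01, 0.44 and 0.33), with sums of 323.9 to 373.2 CPM in YC, 395.6 to 434.6 in OC and 228.7 to 424.6 in OC+SM. The lowest value was that of OC+SM replicate 6, and the other treated libraries had at least 376.4 CPM. The part of such cells in the rise of the members was not tested.

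Few transcripts of the receptors that read class I molecules were found. Of 11 such genes, 4 were tested, and 2 of them had a positive log2 fold change with age (median 0.07, lowest -1.09). Pirb, an inhibitory receptor of myeloid and B cells that binds class I, was the only 1 called. It rose from 0.851 ± 0.446 to 2.47 ± 0.922 CPM (log2 1.56, SE 0.35, adjusted p = 0.00357). Cd8a, the co-receptor of CD8 T cells, had at most 9 counts in a library, and Klrk1, an activating receptor of NK cells, at most 11.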

How the data were processed

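Libraries were made with a 3' RNA sequencing kit (QuantSeq), which reads the 3' end of polyadenylated transcripts, per the labels' protocols. Per the submitters' processing notes, tools were FastQC 1.9 and STAR 2.7.9a with RSEM 1.3.3, on GRCm39. No source used here names the annotation or the strand setting, so reads of overlapping genes cannot be told apart. The authors deposited, per the file headers, RSEM gene tables (55416 genes, 1 table per library) that hold expected counts and TPM. RSEM divides reads that fit several genes, so expected counts need not be whole (87.4% lay within 0.005 of a whole number). The deposited TPM values divide by gene length, which 3' tags do not call for, and served only as an alternative.

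Symbols came from another mouse annotation by Ensembl identifier (52083 of 55416 matched). Expected counts were rounded, filtered (edgeR filterByExpr, minimum count 10, minimum total 15; 16959 genes left), scaled by TMM and tested by quasi-likelihood in edgeR 4.0.16 (R 4.3.3). All 18 libraries entered 1 fit and the 3 comparisons were contrasts, two-sided, with Benjamini-Hochberg adjustment over all genes and a threshold of 0.05. For subunit ratios, exact permutation tests (two-sided) were run. Totals ran from 9.05 to 20.35 in units of 1000000 counts, so 1 CPM stood for about 9 to 20 counts. No pair of libraries within a group agreed within sampling noise (lowest chi-square per degree of freedom 4.1). P-values measure the spread between mice.

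The members and gene lists were chosen with earlier results of these data known. Named genes are all members, the constitutive partners, up to 4 genes of the smallest p in each list with age, list genes called with Samul-tang, and the 5 genes most like the members within groups; other named genes were picked after their values were seen. Alternatives were another scaling (RLE), library sizes without the most abundant gene, no filter, only the 12 libraries compared, DESeq2 1.42.0, limma 3.58.1 on log2(TPM + 1) and log2(TPM + 0.1), thinning to the smallest library, a replicate block, leaving out each library, and, added after seeing the data, leaving out YC replicate 3 and OC+SM replicate 6 together. The members, with no p for the list, are read beside the share of all genes called. Some genes that the naming rule gives are left out of the text.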

Additional observations from a re-analysis of the deposited data

Results flagged for a closer look

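Of 30 sets of 6 values (10 members in 3 groups), 3 had a library far from the rest of its group by Dixon's test (gap to the nearest library over the group's range, above its 95% critical value); chance gives about 1 in 20. H2-D1 was 431.5 CPM in OC replicate 6, the highest of its group. Psmb8 was 64.1 CPM in the same library, also the highest. H2-K1 was 44.2 CPM in YC replicate 3, the lowest of its group. OC replicate 6 also had the highest sum of interferon-induced genes in its group, 696.4 CPM, and a pan-leukocyte sum of 125.0 CPM, and YC replicate 3 had the lowest interferon-induced sum of its group, 339.9 CPM, beside the highest pan-leukocyte sum of all libraries, 132.8 CPM.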

How the results depend on the processing

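Of 1140 values under an alternative, 1080 kept their direction and their side of the threshold, or, for counts, lay within 1.5 times the main one; for member fold changes this was 815 of 843. In OC against YC, 7 members were called under each of the 28 alternatives, with 1357 to 2307 genes called. In OC+SM against OC, 176 genes were called in the main fit, 45 with only the 12 libraries compared, 639 with DESeq2, 483 without YC replicate 3 and OC+SM replicate 6, and 32 to 594 when 1 library was left out (32 without OC+SM replicate 3, 594 without OC+SM replicate 4). That comparison called 0 members in the main fit, 1 (H2-K1) with DESeq2, with thinning and without both of those libraries, and 0 to 1 when 1 library was left out; the cause was not tested. Members whose small, uncalled difference between OC+SM and OC changed sign with 1 library left out ran from -0.11 to 0.05 (H2-D1), -0.17 to 0.06 (B2m), -0.17 to 0.03 (Psmb8), -0.10 to 0.02 (Tap2), -0.23 to 0.09 (H2-T23) and -0.04 to 0.06 (Psmb10); Tapbp in OC+SM against YC ran from -0.01 to 0.07. Psmb10 was also at -0.04 without both libraries, and H2-T23 at 0.02 and 0.03 on the TPM scales. With 1 library left out, the ratio of Psmb10 to Psmb7 in OC against YC ran from 0.30 to 0.41 and lost its call in 10 of 12 cases, where fewer libraries are regrouped. The ratio of Psmb9 to Psmb6 in OC+SM against YC was not called in the main test (0.29, exact permutation adjusted p = 0.287). With 1 library left out it ran from 0.23 to 0.42 and was called only without OC+SM replicate 6 (adjusted p = 0.026). In OC+SM against YC, 5 to 6 members were called when 1 library was left out.

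Mice with the same replicate number had correlations of -0.118 to 0.074, and mice with different numbers -0.119 to 0.149. The numbers thus gave no sign of pairing, though a weak shared effect would not be seen this way. With a replicate block, 7, 0 and 6 members and 1752, 139 and 3533 genes were called in the 3 comparisons; the paired differences of the ratios in OC against YC, 0.6 for Psmb9 to Psmb6 and 0.35 for Psmb10 to Psmb7, could not pass by sign changes of 6 pairs (adjusted p = 0.281). Depth limits H2-T23, which had 38.4 counts in its lowest library, and genes near 1 CPM.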

Other observations

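The share of heavy chain counts taken by H2-K1 was 17.4 to 21.9% in YC, 18 to 20.8% in OC and 14.6 to 17.9% in OC+SM, so all treated libraries lay below all OC libraries. The share of H2-D1 was 54.0 to 60.0% in YC, 59.5 to 64.9% in OC and 61.7 to 66.1% in OC+SM. These shares do not depend on library scaling, but they were looked at after the values of H2-K1 were seen, they rest on reads that RSEM divided among similar genes, and the treated libraries were all deeper (14.2 to 20.35 against 11.61 to 13.43 in OC, in units of 1000000 counts), so they are given without a test.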
